A study of Bos taurus with 16 samples.

Results

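Krüppel-like factors (KLF genes) encode transcription factors, and 10 of them were followed here in the muscle of newborn Hanwoo calves: KLF2, KLF4, KLF5, KLF6, KLF7, KLF9, KLF10, KLF11, KLF13 and KLF15. They were chosen as the rows whose NCBI gene ID carries one of these symbols in RefSeq, and they are 10 of the 34109 genes listed. RNA was measured by bulk RNA sequencing in the round (hind leg) and sirloin (loin) muscle of 8 calves, 1 library per muscle and calf. The dams of 4 calves were fed 100% of their requirement (control), and those of the other 4 calves 150% during mid to late pregnancy (treated). Per the study's methods the calves were male, received no colostrum and were killed after birth, so the 4 groups share age and sex and differ in the diet of the dam and in the muscle. The comparisons ask whether the diet of the dam changed the level of each KLF gene in each muscle, and whether the 2 muscles of a calf differed.

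All KLF proteins bind GC-rich or CACCC DNA elements through a set of zinc fingers at their C-terminus, and they differ in the cofactors that their N-terminus recruits. KLF2, KLF4, KLF5, KLF6 and KLF7 are best known as activators, KLF9, KLF10, KLF11 and KLF13 recruit the SIN3A corepressor, and KLF15 stands apart from both branches. In muscle KLF15 is known as a glucocorticoid-induced regulator of branched-chain amino acid breakdown, KLF5 as a regulator of myoblast differentiation and lipid use, and KLF2 and KLF4 as targets of the ERK5 and MEF2 route in both endothelium and myoblasts.

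The deposited files hold read counts and TPM values. TPM scales transcripts by gene length and library size and is used below for levels between genes. CPM scales counts by library size alone, here with TMM factors over all 16 libraries, and is used for levels between libraries. Total counts per library ran from 44473011 to 72446933. The 10 skeletal muscle fibre markers (such as TTN and CKM) summed to 60809 to 105858 TPM in every library, which fits the labelled tissue. The 6 epithelial markers summed to 0.994 to 3.51 TPM, with the keratin KRT5 at 0 throughout. The 6 red blood cell markers summed to 2.93 to 29.8 TPM, with the anion exchanger SLC4A1 at 0 throughout. Their medians were 5.37 TPM in control and 12.7 TPM in treated round muscle, and 4.32 and 12.8 TPM in sirloin muscle. One library stood apart: in the sirloin of treated calf 4, the 6 adipocyte markers summed to 3924 TPM, against 9.30 to 35.6 TPM in the 15 other libraries. The 6 fibroblast markers were highest in the round muscle of control calf 2, at 2141 TPM against at most 739.6 TPM elsewhere. In bulk RNA, fewer cells of a type and less RNA per cell cannot be told apart.

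KLF10 and KLF9 were the most abundant members per length. KLF10, a TGF-beta-inducible repressor, averaged 96.1 ± 40.1 TPM (SD, n = 16), and KLF9, which is induced by thyroid hormone and glucocorticoids, averaged 88.6 ± 35.9 TPM. KLF10 was the highest member in 11 libraries and KLF9 in the other 5, and together they held 35.1% to 66.9% of the summed TPM of the 10 members. KLF6 followed with 43.0 ± 14.5 TPM, KLF15 with 37.3 ± 27.2 TPM, KLF11 with 28.1 ± 13.8 TPM and KLF4 with 24.5 ± 13.4 TPM. KLF2 was at 16.8 ± 8.10 TPM. The lowest members were KLF13 (5.84 ± 1.93 TPM), KLF5 (4.80 ± 3.56 TPM) and KLF7 (4.11 ± 1.44 TPM), and even these were counted in every library.

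Few neighbours in this order were separated beyond the spread between libraries. KLF9 lay above KLF6 in 16 of 16 libraries, and KLF2 lay above KLF13 in 15 of 16. KLF10 exceeded KLF9 in 11 of 16 libraries, KLF6 exceeded KLF15 in 9, KLF15 exceeded KLF11 in 10, KLF11 exceeded KLF4 in 10, KLF4 exceeded KLF2 in 12, KLF13 exceeded KLF5 in 12 and KLF5 exceeded KLF7 in 10. The order among the upper group and that among the lowest members therefore changed from library to library.

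**Figure D1:**
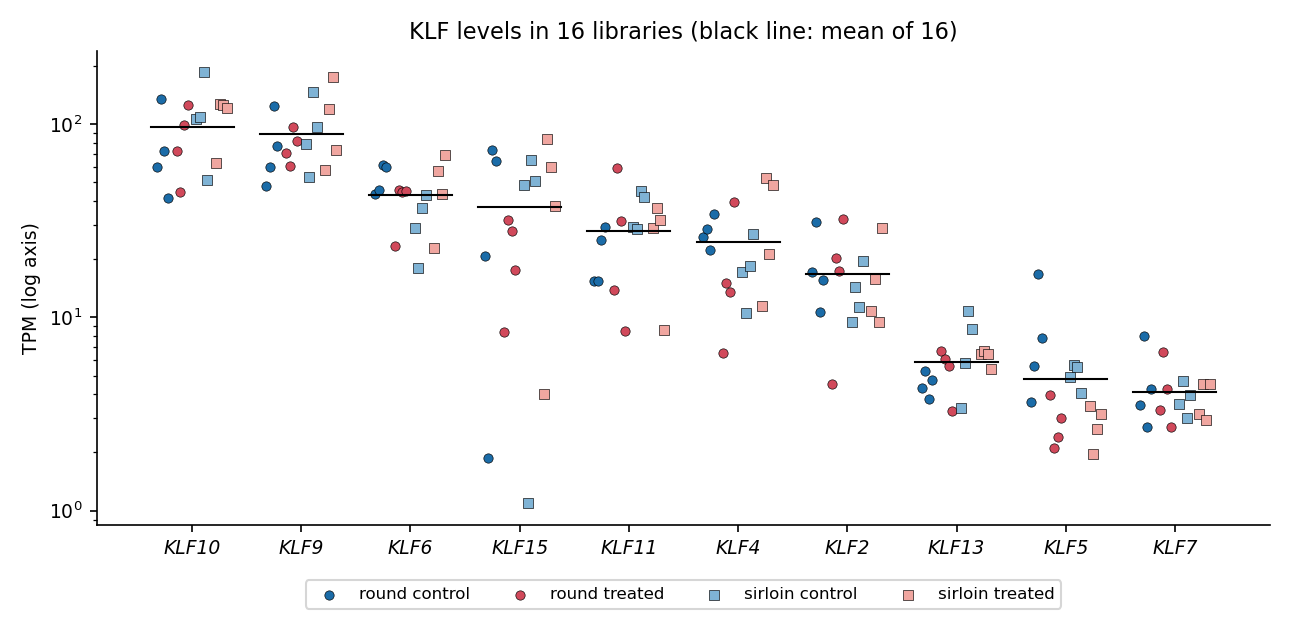
TPM (log axis) of the 10 KLF genes in the 16 libraries, ordered by their mean, with blue for control and red for treated calves, circles for round and squares for sirloin muscle, and a black line at the mean of all 16. KLF10 and KLF9 lie highest, and KLF15 spans the widest range, from 1.10 to 83.9 TPM.

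The members differed in how much they varied among libraries. KLF15 varied most, by 76.6-fold in TPM between its lowest and highest library. Its SD of 1.97 on the log2 CPM scale lay at the 99.1 percentile of the 12315 genes with a mean of at least 1 CPM. The other members varied by 2.97-fold (KLF7) to 8.50-fold (KLF5). KLF7 and KLF13 were the steadiest, with SDs of 0.40 and 0.42 on the log2 CPM scale, near the middle of the genes at the 43.2 and 46.1 percentiles.

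No member passed the test for a diet effect in either muscle. With edgeR's quasi-likelihood test and Benjamini-Hochberg adjustment over all genes, 0 of 10 members had an adjusted p under 0.05 in round muscle, where 0.0185% of the 21677 genes tested did, and 0 of 10 in sirloin muscle, where 0.00918% of 21776 genes did. limma-voom also called 0 of 10 in each muscle, as did DESeq2, which called 0.208% of all genes in round and 0.0597% in sirloin muscle. At an unadjusted p under 0.05, edgeR picked 1 of 10 members in each muscle, KLF5 both times, lower in treated calves, against 2.49% of genes lower in round and 1.62% in sirloin. With any single calf left out, treated calf 4 included, edgeR again called 0 of 10 members in each muscle. In round muscle 7 of 10 log2 fold changes (treated over control) lay below 0, with a median of -0.13 against 0.02 over all genes. In sirloin muscle 7 of 10 also lay below 0, with a median of -0.11 against 0.03 over all genes.

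**Figure D2:**
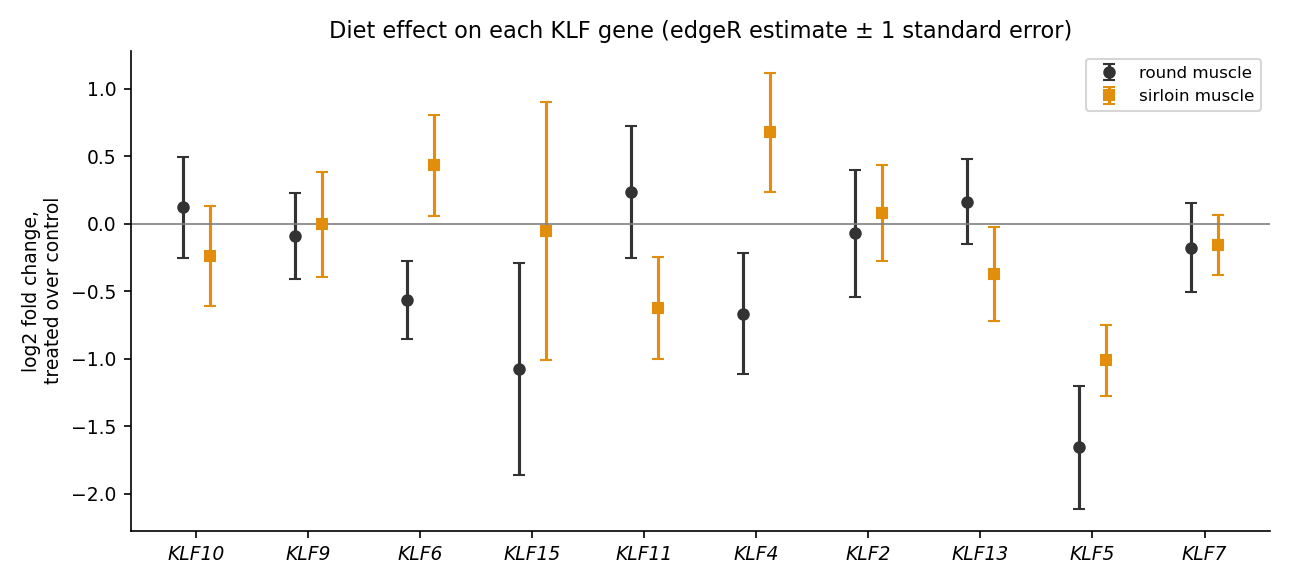
Log2 fold change, treated over control, of each KLF gene in round (black circles) and sirloin (orange squares) muscle, with bars of 1 standard error from edgeR. KLF5 is the one member far below 0 in both muscles, at -1.66 and -1.01, and KLF4 and KLF6 lie below 0 in round and above 0 in sirloin muscle.

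KLF5 was lower in treated than in control calves in both muscles, although it missed the adjusted threshold in each. In round muscle KLF5 was at 8.26, 10.3, 36.0 and 17.5 CPM in control calves 1 to 4 and at 7.98, 3.498, 4.76 and 6.18 CPM in treated calves 1 to 4. In sirloin muscle it was at 10.7, 10.96, 11.4 and 7.92 CPM in the control and at 6.36, 3.42, 4.82 and 5.82 CPM in the treated calves. On this CPM scale all treated libraries lay below all control libraries in each muscle. KLF5 was 1 of 14 genes, 0.0612% of the 22877 with a count, with this pattern in both muscles, against 1.07% of genes in round and 0.822% in sirloin muscle taken singly. In sirloin muscle the groups also stood apart in TPM and in CPM scaled within the muscle. In round muscle they touched on both of these scales, since control calf 1 had 3.65 TPM and treated calf 1 had 3.97 TPM.

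The fitted log2 fold change of KLF5 was -1.66 in round muscle (standard error 0.457, unadjusted p = 0.00361, adjusted p = 0.864 by edgeR and 0.107 by DESeq2). In sirloin muscle it was -1.01 (standard error 0.266, unadjusted p = 0.00300, adjusted p = 0.876 by edgeR and 0.121 by DESeq2). Control calf 3 carried the highest value in both muscles, and without it the round muscle value was -1.08. Without treated calf 4, whose sirloin held the adipocyte markers, the sirloin value was -1.07. When the counts of the 2 muscles of each calf were summed, the log2 fold change for KLF5 was -1.35, with a standard error of 0.327. DESeq2 called this value (adjusted p = 0.0486, with 0.162% of genes called in all), whereas edgeR (adjusted p = 0.933) and limma-voom (adjusted p = 0.998) did not. Over all alternatives the adjusted p of KLF5 ran from 0.107 to 1.0 in round muscle, from 0.121 to 1.0 in sirloin muscle and from 0.0486 to 1.0 summed. The study names KLF5 among the downregulated genes of sirloin muscle, in a gene ontology analysis that used a looser adjusted p threshold than 0.05. Its lists of genes at an adjusted p under 0.05 do not hold KLF5 in either muscle. The study used these same libraries, so the direction of KLF5 here is no independent evidence.

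**Figure D3:**
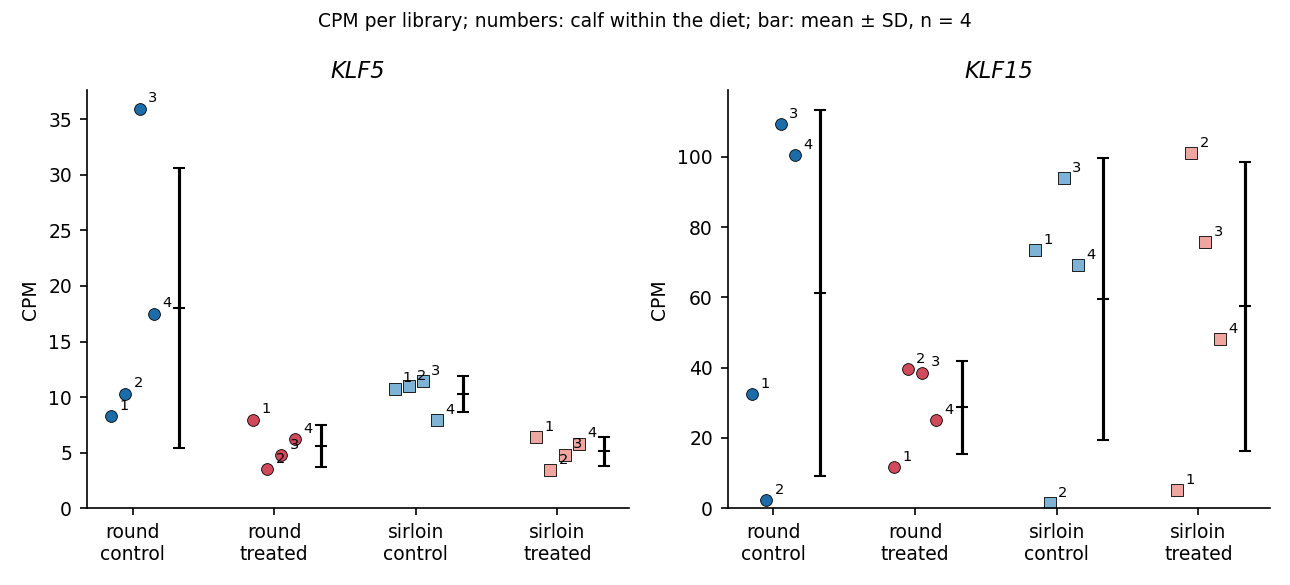
CPM of KLF5 (left) and KLF15 (right) in each library by muscle and diet, with the calf number beside each point and the mean ± SD of 4 beside each group. On this scale the treated KLF5 values, from 3.42 to 7.98 CPM, lie under the control values of the same muscle. In round muscle the KLF5 groups overlap in TPM and in CPM scaled within the muscle. KLF15 is near 0 in control calf 2 in both muscles and overlaps between the diets.

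Among the other activators, the differences between the diets were within the spread of the calves. KLF4, which acts in endothelium, smooth muscle and myoblast fusion, was at 50.3, 44.1, 40.7 and 64.9 CPM in control and 11.1, 22.6, 22.6 and 68.4 CPM in treated round muscle. Treated calf 4 alone lay above the control range there, and the other treated calves lay below it. The log2 fold change was -0.67 (standard error 0.450, edgeR adjusted p = 0.864), and with a calf left out it ran from -1.43 without treated calf 4 to -0.39 without treated calf 1. In sirloin muscle KLF4 was at 32.04, 17.4, 32.6 and 45.0 CPM in control and 17.7, 77.4, 33.04 and 76.3 CPM in treated calves. Here treated calves 2 and 4 lay above every control calf, and the log2 fold change was 0.68 (standard error 0.443, edgeR adjusted p = 0.876), with 0.43 without treated calf 4 and a range of 0.40 to 0.96 with each calf left out.

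KLF6, an early-response activator of wound and TGF-beta genes, was at 115, 95.1, 158 and 160 CPM in control and 48.7, 93.1, 101 and 109 CPM in treated round muscle. Control calves 1, 3 and 4 stood above all treated calves, and control calf 2 lay within their range. The log2 fold change was -0.57 (standard error 0.288, unadjusted p = 0.0733, edgeR adjusted p = 0.864), and it ran from -0.73 to -0.37 with each calf left out. In sirloin muscle KLF6 was at 74.7, 37.4, 89.4 and 101 CPM in control and 46.8, 115, 94.7 and 154 CPM in treated calves. The groups overlapped, and the log2 fold change was 0.43 (standard error 0.373). With a calf left out the sirloin value ran from 0.18 without treated calf 4 to 0.67 without treated calf 1.

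KLF2, the flow-responsive factor of endothelium, ranged from 11.7 to 29.2 CPM in control and 4.65 to 33.6 CPM in treated round muscle, and from 10.6 to 19.6 CPM and 8.82 to 27.2 CPM in sirloin muscle. Treated calf 4 held the highest KLF2 value in both muscles. The log2 fold changes were -0.07 and 0.08, and without treated calf 4 they were -0.55 and -0.36. The 8 endothelial markers summed to 63.9 to 121.9 TPM in round muscle and to 77.4 to 98.7 TPM in sirloin muscle, except for 198 TPM in the sirloin of treated calf 4. Their part in the KLF2 values was not tested. KLF7, a factor of neurons and of preadipocytes, ranged from 11.7 to 31.4 CPM over all libraries, with log2 fold changes of -0.18 in round and -0.16 in sirloin muscle.

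The SIN3A-recruiting members showed no diet difference beyond the calf spread. KLF10 ranged from 81.7 to 217 CPM in control and from 70.0 to 224 CPM in treated round muscle (log2 fold change 0.12, standard error 0.375). In sirloin muscle it ranged from 88.9 to 338 CPM in control calves and was at 101, 194, 201 and 198 CPM in treated calves, so that treated calf 1 lay well under the other treated calves. KLF9 ranged from 41.3 to 128 CPM over all libraries, and its log2 fold changes were -0.09 in round and -0.0044 in sirloin muscle, the latter changing sign under several alternatives.

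KLF11, a relative of KLF10 known from the pancreas, was at 43.5, 35.0, 67.2 and 82.0 CPM in control and 34.5, 131, 77.2 and 21.4 CPM in treated round muscle. In sirloin muscle KLF11 was at 79.6, 68.8, 116 and 101 CPM in control and 65.6, 79.2, 71.8 and 19.8 CPM in treated calves. Treated calf 4 had the lowest KLF11 of all calves in both muscles. The sirloin log2 fold change was -0.63 (standard error 0.377, edgeR adjusted p = 0.876), and with a calf left out it ran from -0.80 without treated calf 2 to -0.33 without treated calf 4. KLF13, known from lymphocytes and heart, was the member with the fewest CPM, from 2.40 to 8.002, and its log2 fold changes were 0.16 in round and -0.37 in sirloin muscle. With a calf left out, KLF13 ran from 0.012 without treated calf 1 to 0.30 without treated calf 4 in round muscle, and from -0.58 without control calf 1 to -0.081 without control calf 3 in sirloin muscle.

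KLF15 differed between calves by far more than between diets. In round muscle it was at 32.5, 2.38, 109 and 100 CPM in control and 11.7, 39.7, 38.6 and 25.0 CPM in treated calves. In sirloin muscle it was at 73.5, 1.49, 93.9 and 69.2 CPM in control and 5.08, 101, 75.7 and 48.2 CPM in treated calves. Control calf 2 was lowest and treated calf 1 second lowest in both muscles. The log2 fold change was -1.07 in round muscle (standard error 0.783, edgeR adjusted p = 0.864), and with a calf left out it ran from -1.52 without control calf 2 to -0.64 without control calf 3. It was -0.15 by limma-voom and -0.13 on log2(TPM + 0.1). In sirloin muscle it was -0.05 (standard error 0.953), and it changed sign under limma-voom (0.44) and when tested on log2(TPM + 0.1) (0.50). Control calf 2 was also the calf whose round muscle had the most fibroblast marker RNA, and whether this bears on its KLF15 level was not tested.

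With the muscles of each calf summed, all 10 log2 fold changes were below 0, from -1.35 (KLF5) to -0.002 (KLF4). Their median was -0.16, against 0.01 over all genes. Without treated calf 1, KLF2 (0.22), KLF4 (0.30), KLF6 (0.13) and KLF9 (0.055) lay above 0. edgeR called 0 of 10, against 0.00437% of 22877 genes, limma-voom also called 0, and DESeq2 called KLF5 alone. At an unadjusted p under 0.05 edgeR picked 1 of 10, KLF5, against 1.92% of genes lower. Beside KLF5, the smallest unadjusted p was that of KLF7 (0.475).

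The diet effect differed most between the muscles for KLF4 and KLF6, though neither passed the adjusted threshold. This was tested as the sirloin diet effect minus the round diet effect with the calf as a block, and edgeR called 0 of 10 members (0.00437% of all genes called), as did limma-voom and DESeq2 (0.0219% of all genes called). At an unadjusted p under 0.05 there were 2 members higher, against 1.84% of genes, and 1 lower, against 1.94%. For KLF4 the value was 1.49 (standard error 0.341, unadjusted p = 0.00092, adjusted p = 1.0 by edgeR and 0.0981 by DESeq2). For KLF6 it was 1.03 (standard error 0.233, unadjusted p = 0.000884, adjusted p = 1.0 by edgeR and 0.0511 by DESeq2). Over the alternatives the adjusted p ran up to 1.0 for both, with the DESeq2 values as the lowest. For KLF11 it was -0.74 (standard error 0.317, edgeR unadjusted p = 0.0369).

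Within each calf, KLF4 was lower in sirloin than in round muscle in all 4 control calves, with differences of -0.65, -1.34, -0.32 and -0.53 on the log2 scale. It was higher in sirloin in all 4 treated calves, with differences of 0.67, 1.77, 0.55 and 0.16. A split of signs in this direction was seen in 49 genes, 0.214% of those with a count. Genes with the opposite split are not in this share. For KLF6 the control calves gave sirloin minus round differences of -0.62, -1.34, -0.82 and -0.66, and the treated calves gave -0.06, 0.31, -0.10 and 0.50. Here the control calves lay below every treated calf, as in 1.14% of genes, but the treated calves were split in sign. KLF11 went the other way: the control calves had 0.87, 0.97, 0.78 and 0.31, and the treated calves 0.92, -0.73, -0.10 and -0.11, so that treated calf 1 overlapped with the controls.

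With each calf left out once, the KLF4 value stayed between 1.17 and 1.72 and the KLF6 value between 0.85 and 1.10, and without treated calf 4 they were 1.72 and 0.93. The immediate early genes, which respond within minutes to a stimulus, lay on the same side: 5 of 14 were higher at an unadjusted p under 0.05, against 1.84% of genes, and 14 of 14 lay above 0, with a median of 0.74 against 0.03 over all genes and 0 called by edgeR. Their summed level was 599 to 1094 TPM in control and 274 to 1372 TPM in treated round muscle, and 309 to 658 TPM in control and 377 to 1694 TPM in treated sirloin muscle. BTG2, an antiproliferative early gene, gave 1.11 (edgeR unadjusted p = 0.000691), and FOS, a subunit of AP-1, gave 2.19 (unadjusted p = 0.00885). Their part in the KLF4 and KLF6 values was not tested. Of the 6 fibroblast markers, 6 lay above 0 (median 0.76) and 3 were higher at an unadjusted p under 0.05, against 1.84% of genes. Of the 6 adipocyte markers, 6 also lay above 0 (median 3.28), but without treated calf 4 this was 3 of 6 (median 0.30). Of the 10 skeletal muscle fibre markers, 8 lay below 0 (median -0.51) and 2 were lower at an unadjusted p under 0.05, against 1.94% of genes. edgeR called none of these markers, and their part in the KLF4 and KLF6 values was not tested either.

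**Figure D4:**
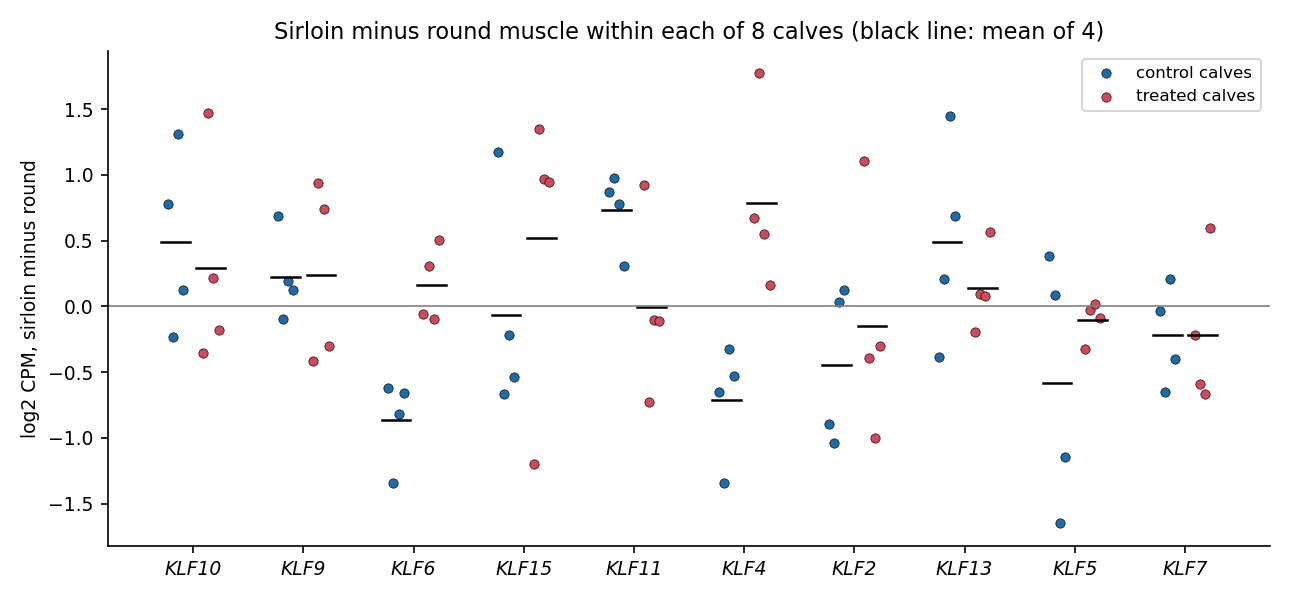
Sirloin minus round log2 CPM of each KLF gene within the 4 control (blue) and 4 treated (red) calves, with a black line at the mean of 4. KLF4 lies below 0 in every control and above 0 in every treated calf, and KLF6 lies at -0.62 or lower in the control and at -0.10 or higher in the treated calves.

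Averaged over the diets, the muscles did not differ in any member at the adjusted threshold. The within-calf test of edgeR called 0 of 10 members, against 0.533% of 22877 genes, and 0 of 10 had an unadjusted p under 0.05, against 11.2% of genes. DESeq2, which called 3.62% of genes, and limma-voom also called 0 of 10. The log2 differences, sirloin over round, ran from -0.35 (KLF6, standard error 0.185) to 0.38 (KLF10, standard error 0.209). KLF11 had the smallest p (0.37, standard error 0.187, edgeR unadjusted p = 0.0707, adjusted p = 0.512). KLF5 (-0.34), KLF2 (-0.31) and KLF7 (-0.22) lay on the round side, and KLF13 (0.31), KLF15 (0.25) and KLF9 (0.23) on the sirloin side. None of the 10 had the same sign in all 8 calves, a pattern that 2.5% of genes showed.

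Across the 16 libraries, which come from 8 calves and share their depth and scaling, the genes most like KLF15 in log2 CPM were IRS2 (Pearson's r 0.974), ZFAND5 (0.968), HBP1 (0.963), SLC25A33 (0.947) and TRIM63 (0.945), among 11393 genes with a symbol. IRS2 is an insulin receptor substrate, ZFAND5 a zinc finger protein that activates the proteasome, HBP1 a repressor of the cell cycle, SLC25A33 a mitochondrial pyrimidine nucleotide carrier and TRIM63 the muscle ubiquitin ligase MuRF1. In each of the 5 genes control calf 2 was lowest and treated calf 1 second lowest in both muscles, as for KLF15. The genes were picked by their correlation with KLF15 in these same libraries, so the shared low calves follow from that choice and are no separate result. TRIM63 was at 80.6 CPM in the round muscle of control calf 2 against 1452 CPM in that of control calf 3. IRS2 was at 5.98 CPM in the sirloin of control calf 2 against 133 CPM in that of treated calf 2. Among the members, KLF9 (0.72) and KLF6 (0.71) came closest to KLF15.

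**Figure D5:**
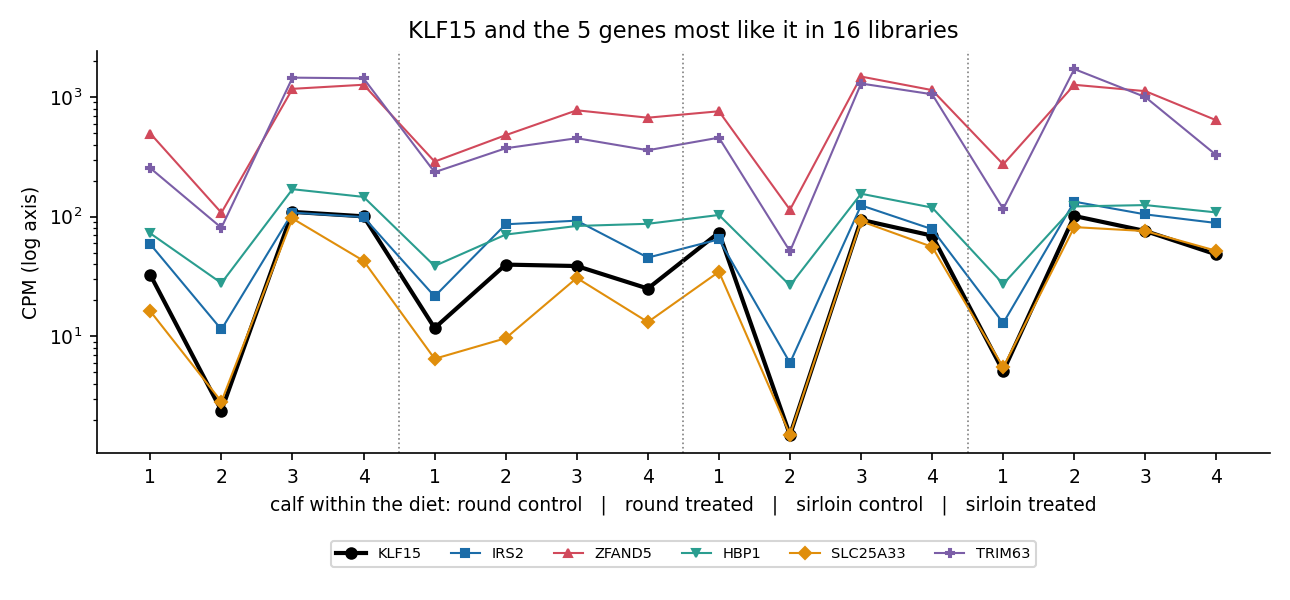
CPM (log axis) of KLF15 (black) and of the 5 genes with the highest correlation with it, in the 4 calves of each group; the lines join libraries only to guide the eye. All 6 genes are lowest in control calf 2 and next lowest in treated calf 1 in both muscles, with KLF15 at 2.38 and 1.49 CPM in control calf 2. The 5 genes were chosen by their likeness to KLF15 in these libraries, so this shared order follows from the choice.

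The genes most like KLF5 were C15H11orf96 (r 0.885), SGMS2 (0.853), EYA4 (0.840), HOMER1 (0.838) and AGPAT5 (0.834). SGMS2 is a sphingomyelin synthase, EYA4 a transcriptional coactivator and phosphatase of the eyes absent family, HOMER1 a synaptic and muscle scaffold and AGPAT5 an acyltransferase of phospholipid synthesis. The round muscle of control calf 3 was the highest round library for all 5, at 114 CPM for C15H11orf96 and 12.8 CPM for SGMS2, as it was for KLF5. The lowest round library of each was a treated calf. In sirloin muscle control calf 3 was highest for SGMS2 and EYA4, as for KLF5. There the highest was control calf 4 for C15H11orf96, control calf 1 for HOMER1 and control calf 2 for AGPAT5. The genes were picked by their correlation with KLF5 in these same libraries, so shared high and low calves follow from that choice and are no separate result. Among the members, KLF9 (0.186) came nearest to KLF5.

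Of the other 7 KLF genes, KLF17 had 0 counts in all 16 libraries, which allows up to 0.00338 CPM over all of them (3 counts, counting error only), and KLF1 had counts in 2 libraries. KLF3, a repressor that binds CtBP, was the highest of them at 7.15 TPM on average. Its log2 fold change was -0.77 in round muscle (standard error 0.23, edgeR unadjusted p = 0.00557, adjusted p = 0.864) and -0.27 in sirloin muscle, and no gene of this group was called in any comparison. Of the 9 related SP genes, SP6, SP8 and SP9 had 0 counts, while SP3 (11.7 TPM) and SP1 (10.95 TPM) were the highest, and none was called.

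The known partners and inputs of the members were also without calls for diet. Of the 14 corepressors and partners, SIN3B, a scaffold for histone deacetylases, had the smallest p in round muscle (0.50, edgeR unadjusted p = 0.0335), and 12 of 14 lay above 0 there against 5 of 14 in sirloin muscle (medians 0.18 and -0.08). Of the 8 ERK5 and MEF2 genes upstream of KLF2 and KLF4, MAP3K3, the kinase that feeds ERK5, was at 0.76 in round (edgeR unadjusted p = 0.0255) and 0.63 in sirloin muscle (unadjusted p = 0.0592). Of the 11 TGF-beta genes upstream of KLF10 and KLF11, 10 lay below 0 in round muscle (median -0.46, against 0.02 over all genes). The fibroblast markers lay on the same side there, 5 of 6 below 0 with a median of -0.92, and their part in the TGF-beta values was not tested. Without control calf 2, whose round muscle held the most fibroblast marker RNA, 9 of 11 TGF-beta genes lay below 0 (median -0.27), and 3 of 6 fibroblast markers (median 0.06).

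Between the muscles, of the 8 endothelial targets of KLF2 and KLF4, ASS1, an enzyme of arginine synthesis, was higher in sirloin (1.16, edgeR adjusted p = 0.011), and 7 of 8 lay below 0 (median -0.16). Of the 8 endothelial markers, 7 also lay below 0 in this contrast (median -0.20), and their part in the values of the targets was not tested. For diet, VCAM1, a leukocyte adhesion molecule, was at 1.86 in round and 1.29 in sirloin muscle (edgeR unadjusted p = 0.0445 and 0.042), with 0 of 8 called in either. At an unadjusted p under 0.05, 1 of 8 targets was higher and 1 lower in round muscle, against 417 and 539 of 21677 genes. In sirloin muscle 1 of 8 was higher, against 2.3% of genes, and 0 were lower. In round muscle VCAM1 was at 18.4 CPM in treated calf 2, against 1.08 to 2.34 CPM in the other treated calves and 0.92 to 3.35 CPM in the control calves. TAGLN and ACTA2, contractile genes of smooth muscle, a tissue in which KLF4 and KLF5 are known regulators, were lower in sirloin, with log2 differences of -0.70 and -0.69 (edgeR adjusted p = 0.018 and 0.042).

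The genes around KLF15 gave no diet call. Of 13 glucocorticoid-responsive genes, 12 lay above 0 in sirloin muscle against 5 in round muscle (medians 0.30 and -0.35). Without treated calf 2 the sirloin count was 6 of 13 (median -0.02), and without control calf 1 the round count was 7 of 13 (median 0.15). NR3C1, the glucocorticoid receptor, was at -0.41 in round (edgeR unadjusted p = 0.116) and -0.47 in sirloin muscle (unadjusted p = 0.0528). Between the muscles, 5 of 13 were higher in sirloin at an unadjusted p under 0.05, against 5.78% of genes, and 2 were lower, against 5.45%, with FOXO3 at 0.67 and FBXO32, the atrogin ubiquitin ligase, at 1.03, and 0 called. Of the 13 genes of branched-chain amino acid and fuel use, UCP3, a mitochondrial uncoupling protein of muscle, had the smallest p in sirloin muscle (-1.20, edgeR unadjusted p = 0.013), while the branched-chain enzyme BCKDHA was at 0.40 in round muscle (unadjusted p = 0.178). Of the 8 adipogenic partners of KLF5 and KLF15, 4 were higher in treated sirloin muscle at an unadjusted p under 0.05, against 2.3% of genes, and they include FABP4, ADIPOQ and PLIN1, which are also among the adipocyte markers that treated calf 4 held at a high level. Without that calf 0 of 8 were higher and 1 was lower at this p, and the median went from 2.35 to -0.55.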

How the data were processed

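RNA was sequenced from round and sirloin muscle of 8 calves, 4 per diet, as 16 libraries. The authors deposited read counts per gene without normalization and TPM values for 34109 genes per muscle, with comparison tables of their own fold changes and p-values that were not used. The sources disagree on how these were made. The submitters' processing notes name FastQC, Trimmomatic, STAR, featureCounts, DESeq2 and the build ARS-UCD1.2, and the labels state poly(A) selection. The study's methods name rRNA and globin removal, HISAT2, Bowtie2 and StringTie. Poly(A) selection and rRNA removal keep different RNA, and the difference was left unresolved. The deposited TPM sum to 1000000 in both libraries of control calf 2 and to 999756 to 999858 in the others. Gene symbols came from a RefSeq table of another assembly, used for names only, and 30762 IDs (90.2%) had one.

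The sample titles number the replicates 1 to 4 within a group, and these are the calf numbers used here. The sample descriptions number the calves across the diets instead, with the same number for both muscles of a calf. In that numbering control calves 1 to 4 are 4, 5, 7 and 8, and treated calves 1 to 4 are 1, 2, 3 and 6. After removal of the group means, the 2 libraries of a calf correlated at 0.319 to 0.756, and libraries of different calves at -0.521 to 0.143, so the calf was a block in comparisons between muscles. Replicate numbers shared across diets are different calves and do not pair them (-0.275 to 0.286). No 2 libraries of a group agreed within sampling noise (chi-square per degree of freedom at least 144).

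Tests were edgeR 4.0.16 glmQLFit and glmQLFTest on the counts in R 4.3.3, with TMM factors, two-sided, on genes with at least 1 count in any library of the comparison, with Benjamini-Hochberg adjustment over all genes. Each muscle was tested separately for diet, then the counts summed per calf, the muscle by diet term and the muscle term. P-values of the diet tests within a muscle and summed measure the spread between calves, 4 per group. Those of the muscle term and the muscle by diet term, fitted with the calf as a block, measure the spread of the within-calf differences between the muscles. The standard error is the log2 fold change divided by the square root of F. CPM in the text use factors over all 16 libraries, and log2 CPM a prior count of 2. Alternatives were DESeq2 1.42.0, limma-voom (limma 3.58.1), RLE and upper-quartile factors, filterByExpr, no filter, a replicate block or none, all 16 libraries in 1 fit, limma on log2(TPM + 0.1) and log2(TPM + 1), and leaving out each calf. The fits were tested on simulated counts with 200 changed genes. Among the unchanged genes, DESeq2 called 26 in the round and 34 in the sirloin diet test. edgeR called 7 and 11 there, and limma-voom 11 and 9. The test on summed counts, in which DESeq2 called KLF5, was not simulated.

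Named were the 10 members, of each list at most 3 genes with the smallest p per comparison and those called, except 1 gene that is not reported here, and the 5 genes most correlated with KLF5 and with KLF15 among symbols other than LOC names with a mean of at least 1 CPM. Genes named for a count of 0 or as the most abundant of a list were chosen after their values were seen. Markers of other cell types were summed as TPM. Members and lists were chosen with earlier results of these data known.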

Additional observations from a re-analysis of the deposited data

Results flagged for a closer look

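In the sirloin of treated calf 1, KLF10 was at 100.5 CPM, far below the 194 to 201 CPM of the other 3 treated calves. In the sirloin of treated calf 4, KLF13 was at 3.58 CPM, below the 4.16 to 4.22 CPM of the other 3. Of the 40 groups of 4 libraries examined for a library far from the rest, these 2 were flagged, and chance alone flags about 1 in 20. The diet effect on KLF4 differed in sign between the muscles, by 1.49 on the log2 scale (edgeR unadjusted p = 0.00092, adjusted p = 1.0), with sirloin below round in 4 of 4 control calves and above it in 4 of 4 treated calves.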

How the results depend on the processing

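Of 810 repeats of the 50 member results, 738 kept their direction and side of the threshold. KLF5 in each muscle and summed, and KLF4 and KLF6 in the difference between the muscles, kept their direction in all, with KLF5 at -1.89 to -1.08 in round, -1.14 to -0.67 in sirloin and -1.53 to -1.04 summed, and KLF4 at 1.17 to 1.72. The 1 gained call was KLF5 summed by DESeq2 (-1.35, adjusted p = 0.0486), the 1 member called there. The cause of changes was not tested.

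Over all genes, the calls in round muscle were 45 by DESeq2, 1 by limma-voom, 2 without a filter, 2 with a replicate block, 1 and 0 on log2(TPM + 0.1) and log2(TPM + 1), and 0 to 3 with a calf left out. In sirloin muscle they were 13, 0, 1, 0, 1 and 0, and 0 to 1. Summed per calf they were 37 by DESeq2, 0 by limma-voom, 0 with a replicate block and 0 to 2 with a calf left out. For the difference between the muscles they were 5 by DESeq2, 0 with no replicate block and 0 to 2 with a calf left out. Between the muscles they were 829 by DESeq2, 80 without a filter, 14 with no replicate block and 44 to 368 with a calf left out, the highest without treated calf 4. Ordered by CPM in place of TPM, 3 of 10 members kept their rank. A replicate block across the diets, where numbers do not pair calves, or no block between the muscles, changed no call of a member.

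Small values changed sign under some settings. limma-voom gave -0.013 for KLF11 in round muscle, 0.44 for KLF15 and -0.0064 for KLF2 in sirloin muscle, 0.22 for KLF15 summed, and 0.022 for KLF7 in the difference between the muscles. A replicate block gave -0.020 for KLF11 in round and -0.021 for KLF2 in sirloin muscle, and no replicate block 0.045 for KLF7 in the difference. On log2(TPM + 0.1) and log2(TPM + 1), KLF9 was at 0.075 and 0.073 for the round muscle, and at 0.15 on both scales for the sirloin, where KLF15 was at 0.50 and 0.37 and KLF10 at 0.040 and 0.039. The median of all genes in sirloin muscle was 0.14 on log2(TPM + 0.1). KLF9 in sirloin muscle was at 0.00073 by DESeq2, 0.00077 with RLE and 0.0025 with filterByExpr. KLF4 summed was at 0.0059 by DESeq2 and 0.0059 with RLE. In the difference, KLF9 was at -0.021 with upper-quartile factors and KLF7 at 0.00025 with filterByExpr.

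With a calf left out, values crossed 0 in 21 results. In round muscle KLF2 ran from -0.55 to 0.25, KLF10 from -0.16 to 0.40, KLF7 from -0.42 to 0.073, KLF9 from -0.28 to 0.24 and KLF11 from -0.37 to 0.49. In sirloin muscle KLF15 ran from -0.48 to 0.33, KLF2 from -0.36 to 0.28, KLF10 from -0.49 to 0.12 and KLF9 from -0.37 to 0.31. Summed, KLF6 ran from -0.31 to 0.13, KLF4 from -0.42 to 0.30, KLF2 from -0.48 to 0.22, KLF10 from -0.37 to 0.10, KLF7 from -0.32 to 0.0075, KLF9 from -0.34 to 0.25 and KLF13 from -0.32 to 0.0025. In the difference, KLF2 ran from -0.12 to 0.55, KLF10 from -0.60 to 0.036, KLF7 from -0.26 to 0.14 and KLF9 from -0.22 to 0.24. Between the muscles KLF4 ran from -0.21 to 0.21. With 4 calves per group, differences of this size lie within the spread between calves. The lowest count of any member in any library was 111 (KLF15).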
